A study of Homo sapiens with 28 samples.

Results

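The genes followed across the series were IL6, IL11, LIF, IL6ST, CSF1, CSF2, CSF3 and SOCS3: cytokines of the IL6 family, their shared receptor chain, the colony stimulating factors and a feedback inhibitor of the same signal. They were chosen by name from the deposited count table, where they are 8 of 58735 genes, and the choice rule uses no measured value. The choice was made with earlier results of these data known, so member counts set beside the share of all genes are a description. All 8 passed the filter on low counts, with 17191 genes tested in all. The study compared MDA-MB-231 cells, a human triple-negative breast cancer line, that overexpressed Tpm2.1, a tropomyosin (a protein that binds along actin filaments) made from TPM2, with the same line carrying an empty vector (EV). Its title concerns anoikis, the death of cells that have lost their attachment, and its sensitivity in cancer cells.

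Attached Tpm2.1 cells and attached EV cells were kept on tissue culture plates for 6 h. Suspended cells of both lines were kept in ultra-low attachment plates for 5 h, or for 1, 2 or 4 days. Suspended Tpm2.1 cells were parted with Annexin V beads, which bind a lipid exposed by dying cells, into apoptotic and non-apoptotic fractions, at every time. The labels give this step neither to EV nor to attached cells. In suspension a difference between the lines therefore cannot be told apart from an effect of the bead step, and suspension cannot be told apart from the change of plate and culture time. All cells grew in medium with serum and puromycin. There were 14 groups of 2 libraries, which the titles call biological replicates without saying how the cultures were set apart, and each kind of cell was 1 line. The p-values therefore rest on the spread between replicate libraries, which may in part be technical. That spread was estimated for each gene over all 14 groups together, not from the compared groups alone.

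IL6, IL11 and LIF are secreted ligands that signal through receptor complexes containing IL6ST, also called gp130. This chain activates JAK kinases and the transcription factor STAT3, and STAT3 induces SOCS3, which binds the receptor and JAK kinases and damps the signal. CSF1, CSF2 and CSF3 are growth factors for macrophages, for granulocytes and macrophages, and for granulocytes, each with a different receptor. IL6, IL11 and CSF2 are among the cytokines that aggressive breast cancer cells are known to secrete. Many cytokine mRNAs are short-lived because proteins of the ZFP36 family and the nuclease Regnase-1 (ZC3H12A) bind elements in their 3′ untranslated regions.

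In the coordinates of the deposited table, on hg38, all 8 are protein-coding genes. IL6 lies at chr7:22725884-22732002 on the plus strand, IL11 at chr19:55364389-55370463 on the minus strand and LIF at chr22:30240447-30246851 on the minus strand. IL6ST lies at chr5:55935095-55994993 on the minus strand, CSF1 at chr1:109910242-109930992 on the plus strand and CSF2 at chr5:132073790-132076170 on the plus strand. CSF3 lies at chr17:40015361-40017813 on the plus strand and SOCS3 at chr17:78356778-78360077 on the minus strand. Whether counting used the strand is not given in the sources used here, so reads of IL6, LIF and IL6ST cannot be told apart from those of genes on the opposite strand that overlap them. Those genes had few counts of their own: at most 20 for AC073072.1 and 9 for STEAP1B at IL6, against 6 to 4280 for IL6, at most 41 for AC004264.1 and 11 for LIF-AS1 at LIF, and at most 51 for AC016596.1 at IL6ST.

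Promoter windows of 300 bases, 250 before and 50 after the RefSeq start on GRCh38.p14, were found for 5 of the 8 members. Those of IL6 (chr7:22726950-22727249, plus strand), IL11 (chr19:55370414-55370713, minus strand) and CSF2 (chr5:132073539-132073838, plus strand) are shown because these genes had the widest gaps between the lines. Each was searched on both strands for an NF-kB type motif (3 G, then 5 bases of any kind, then 2 C), an AP-1 motif (TGANTCA), a STAT motif (TTCNNNGAA) and a TATA box (TATAAA), and capitals mark the matches, with overlapping matches run together.
IL6: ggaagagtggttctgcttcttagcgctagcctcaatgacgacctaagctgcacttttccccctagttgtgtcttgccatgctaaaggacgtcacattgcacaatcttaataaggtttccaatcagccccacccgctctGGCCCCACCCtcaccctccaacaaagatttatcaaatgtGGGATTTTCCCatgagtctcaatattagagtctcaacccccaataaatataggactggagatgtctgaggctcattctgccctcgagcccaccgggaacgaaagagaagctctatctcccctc
IL11: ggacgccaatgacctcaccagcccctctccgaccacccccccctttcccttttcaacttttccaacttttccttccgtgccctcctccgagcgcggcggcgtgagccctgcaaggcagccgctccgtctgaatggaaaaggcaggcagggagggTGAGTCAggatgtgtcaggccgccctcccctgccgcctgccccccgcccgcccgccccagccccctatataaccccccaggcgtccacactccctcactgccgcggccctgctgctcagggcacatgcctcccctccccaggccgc
CSF2: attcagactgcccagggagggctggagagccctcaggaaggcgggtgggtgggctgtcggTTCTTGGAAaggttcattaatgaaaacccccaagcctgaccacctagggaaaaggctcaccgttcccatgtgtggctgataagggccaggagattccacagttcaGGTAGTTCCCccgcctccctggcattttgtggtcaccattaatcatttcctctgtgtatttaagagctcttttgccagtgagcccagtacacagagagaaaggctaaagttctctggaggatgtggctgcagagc
The IL6 window held 3 NF-kB type matches, a pair of which overlap between 73 and 63 bases before the start. The IL11 window held 1 AP-1 match, 96 bases before the start, and the CSF2 window held 1 NF-kB type match and 1 STAT match. Of 35116 RefSeq windows of this length, 58.7% held an NF-kB type match, 7.71% an AP-1 match, 7.66% a STAT match and 11.5% a TATA box as spelt here. The NF-kB spelling is loose, so a match is common, and these matches are a description of the letters alone.

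The pentamer ATTTA, the core of AU-rich elements, was counted in the 3′ untranslated region of the GENCODE release 29 transcript with the longest coding sequence. Stretches of 30 bases with the most pentamers are shown for the 4 members with the highest density, with the pentamers in capitals.
CSF2: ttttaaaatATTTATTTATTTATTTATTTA
IL6: ttttaattatttttaATTTAttaatATTTA
CSF3: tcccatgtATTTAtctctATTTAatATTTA
IL11: ttccaaagccagatcttATTTATTTATTTA
CSF2 had 8 pentamers in 318 bases, or 25.2 per kilobase, a density reached by 0.0462% of 17326 genes. IL6 had 14 per kilobase, a density reached by 0.439% of genes, CSF3 had 8.20 (2.41%) and IL11 had 5.56 (7.97%). IL6ST (3.84), SOCS3 (2.44), LIF (2.18) and CSF1 (1.86) lay closer to the median gene at 1.54 per kilobase.

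TPM2 checked the labels: it had 3242 to 3361 CPM (counts scaled to a common library size with TMM factors) in attached Tpm2.1 libraries, against 22.7 to 27.2 CPM in attached EV libraries, and at least 2461 CPM in every suspended Tpm2.1 library. Library totals ran from 13043529 to 27416335 counts, and the attached groups were the deepest. The 2 apoptotic libraries at 4 days stood apart: they had 18183 and 18676 genes with a count, against 21275 to 24530 in the other 26 libraries. Mitochondrial mRNAs took 5.86% and 6.40% of their counts, 2.66% to 5.34% in the 6 earlier apoptotic libraries, 1.22% to 1.62% in the 8 non-apoptotic libraries and 1.12% to 4.36% in the 8 suspended EV libraries. Of 5 RNAs known to stay in the nucleus, MALAT1, NEAT1, KCNQ1OT1 and SNHG14 were tested, and MEG3 had a count of 0 in every library. These 4 and the 13 mitochondrial mRNAs, which can move with RNA quality, are given beside the comparisons they moved with. The part of these libraries, of mitochondrial mRNA and of nuclear RNA in the results was not tested. Markers of the line were present, VIM, CD44 and KRT18 with at least 1209 counts and KRT8 with at least 446 in every library, while KRT19 (52 to 1671 counts), EPCAM (56 to 247) and KRT7 (0 to 73) were lower. Of 8 leukocyte markers, CD14 and CSF1R passed the filter, the list summed to between 0.543 and 6.34 CPM in every library, TYROBP had a count of 0 in all of them and PTPRC at most 3. Of 7 fibroblast and endothelial markers 5 passed, and they summed to 25.3 to 27.5 CPM in attached Tpm2.1 libraries, 50.7 to 61.8 CPM in the apoptotic fraction at 4 days, 94.5 to 95.1 CPM in the non-apoptotic fraction at 4 days and 24.7 to 117 CPM over all libraries, most of it COL1A1. Since these are bulk libraries, fewer cells that express a gene and less of its RNA per cell cannot be told apart. CPM is also a share of the library, so a value can rise when other RNA is lost. Rises and falls given here are changes in that share, and amounts per cell were not measured.

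**Figure D1:**
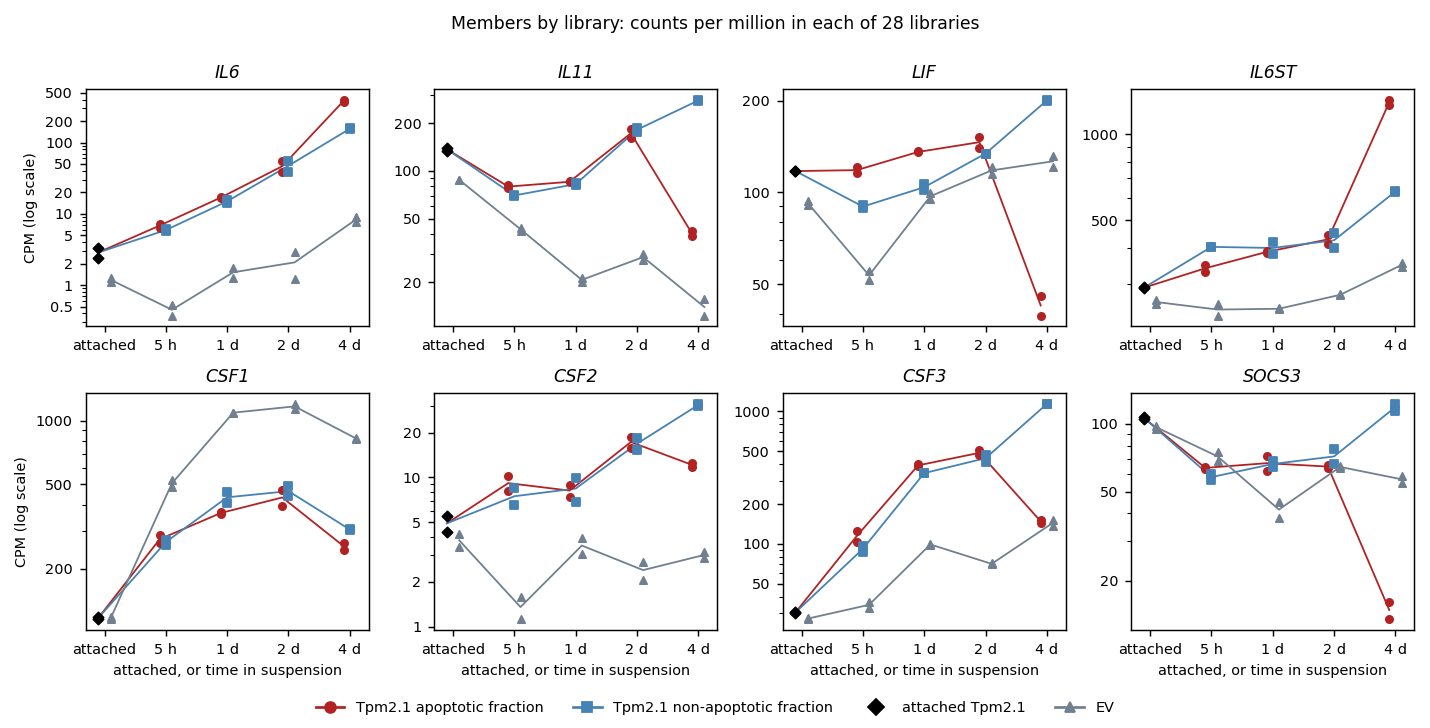
CPM (log axis) of each member in each of 28 libraries, attached or by time in suspension; points are libraries and lines join the means of 2 libraries. The mean of IL6 climbed with time in all 3 suspended arms and ended at 371 and 396 CPM in the apoptotic fraction, while CSF1 was highest in EV cells, at 1134 and 1206 CPM after 2 days.

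In attached cells IL6, IL11, LIF and IL6ST were higher in Tpm2.1 cells, and the colony stimulating factors and SOCS3 did not pass. IL6 had 3.32 and 2.41 CPM in attached Tpm2.1 cells, against 1.28 and 1.09 CPM in attached EV cells, so the groups did not overlap, though both were low. IL6 was higher by 1.27 ± 0.33 on the log2 scale (SE; adjusted p = 0.00416, edgeR's quasi-likelihood test with Benjamini-Hochberg adjustment over all genes tested, which is also the test of every later comparison; a difference is said to pass at an adjusted p below 0.05). IL11 had 134 and 139 CPM in Tpm2.1 cells, against 87.6 and 88.1 CPM in EV cells, a log2 difference of 0.64 ± 0.06 (adjusted p = 2.21e-10). LIF was higher by 0.35 ± 0.06 (adjusted p = 1.94e-05) and IL6ST by 0.17 ± 0.06 (adjusted p = 0.0346). These 4 of 8 members passed, all of them higher, while 20.5% of all genes tested passed in either direction. In the same comparison 11 of 13 mitochondrial mRNAs (median 0.38) and 4 of 4 nuclear RNAs (median 1.14) were higher. CSF1, CSF2, CSF3 and SOCS3 did not pass, with 95% intervals of the log2 difference of -0.13 to 0.15, -0.03 to 0.78, -0.02 to 0.33 and -0.01 to 0.28. The interval of CSF2 held the value of LIF, and those of CSF3 and SOCS3 held that of IL6ST, so the threshold does not set these genes apart. When the 4 attached libraries were fitted alone, SOCS3 passed too (0.15, adjusted p = 0.0032 in edgeR's test), and 5 members did. Without the first Tpm2.1 library IL6 was at 1.02 and no longer passed (adjusted p = 0.0874), nor did it without the second EV library, at 1.16 (adjusted p = 0.0599). IL6ST did not pass when any 1 of the 4 attached libraries was left out, so that 2 or 3 members passed in those refits.

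In suspended EV cells, CSF1 and CSF3 rose, IL11 and SOCS3 fell, CSF2 was lower in the mean over times, and IL6 fell at first and was high at 4 days. CSF1 had 486 and 526 CPM at 5 h, 1092 and 1093 CPM at 1 day, 1134 and 1206 CPM at 2 days and 820 and 831 CPM at 4 days, against 118 and 115 CPM in attached EV cells. No suspended library overlapped the attached ones, and the mean over the 4 times was higher by 2.88 ± 0.06 (adjusted p = 5.51e-31). CSF3 had 33.1 and 36.4 CPM at 5 h, 99.8 and 98.5 CPM at 1 day, 71.4 and 70.2 CPM at 2 days and 153 and 136 CPM at 4 days, against 27.66 and 26.98 CPM in attached EV cells, and was higher by 1.495 ± 0.070 in the mean (adjusted p = 6.18e-21). IL11 had 42.1 and 44.0 CPM at 5 h, 21.3 and 20.05 CPM at 1 day, 27.6 and 29.9 CPM at 2 days and 15.6 and 12.3 CPM at 4 days, against 87.6 and 88.1 CPM attached. It fell by 1.85 in the mean (SE 0.05, adjusted p = 1.17e-27), and every suspended library was below both attached ones. SOCS3 fell by 0.75 (SE 0.06, adjusted p = 2.21e-14) and CSF2 fell by 0.64 in the mean (SE 0.18, adjusted p = 0.00213). CSF2 had 1.12 and 1.58 CPM at 5 h, 3.08 and 3.91 CPM at 1 day, 2.72 and 2.06 CPM at 2 days and 2.90 and 3.15 CPM at 4 days, against 3.42 and 4.15 CPM attached. It did not pass at 1 day, where the libraries overlapped the attached ones, or at 4 days. At 2 days it was at -0.67 and passed in 2 of the 4 refits that left out 1 library. Without the second attached EV library CSF2 was at -0.50 and did not pass (adjusted p = 0.0847).

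Taking the mean over the times, 5 of 8 members passed in EV cells, 2 higher and 3 lower, with 66.3% of all genes passing. Without 4 days 6 passed, 2 higher and 4 lower, with 66.2% of all genes, LIF being the added one at -0.12 ± 0.05. All 13 mitochondrial mRNAs (median 0.66) and 3 of 4 nuclear RNAs (median 2.04) were higher in suspended EV cells than in attached ones. IL6, LIF and IL6ST did not pass in the mean over the 4 times, where early and late values lay on different sides. IL6 was at 0.66 ± 0.33 (adjusted p = 0.0771), and at 0.59 to 0.63 with an adjusted p of 0.0427 to 0.0483 with no filter on low counts, with DESeq2 or with the libraries of the contrast alone. Without the first EV library of 2 days it was at 0.78 and passed (adjusted p = 0.029), and without 4 days it was at -0.06 (adjusted p = 0.898). IL6ST, at 0.09 in the mean, passed with protein-coding genes alone (0.11, adjusted p = 0.0267) and without the second EV library of 5 h (0.10, adjusted p = 0.0496). IL6 had 0.372 and 0.528 CPM at 5 h, 1.26 and 1.76 CPM at 1 day, 1.23 and 2.93 CPM at 2 days and 7.69 and 8.90 CPM at 4 days, against 1.28 and 1.09 CPM attached. Its difference at 4 days was 2.80 ± 0.28 (adjusted p = 4.13e-11), while the value at 5 h, -1.39 ± 0.57 (adjusted p = 0.0381), no longer passed when any 1 of the 4 libraries was left out, with values of -1.65 to -1.15. LIF fell by 0.79 at 5 h (SE 0.06, adjusted p = 3.29e-13) and was higher by 0.46 ± 0.06 at 4 days (adjusted p = 1.83e-08). IL6ST was within 0.09 of its attached level on the log2 scale up to 2 days, where it did not pass, and was higher by 0.43 ± 0.06 at 4 days (adjusted p = 3.61e-08). From 5 h to 4 days all 8 members moved in EV cells, 6 higher at 4 days and IL11 and SOCS3 lower, when 52.8% of all genes passed and 12 of 13 mitochondrial mRNAs were lower (median -1.41).

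In non-apoptotic Tpm2.1 cells, IL6 and CSF3 rose the most of the 8, and IL6ST, CSF1 and CSF2 rose as well. IL6 had 6.11 and 5.71 CPM at 5 h, 15.5 and 14.4 CPM at 1 day, 39.1 and 55.3 CPM at 2 days and 153 and 158 CPM at 4 days, against 3.32 and 2.41 CPM in attached Tpm2.1 cells. Each time lay above the one before it, with no overlap of libraries. CSF3 had 96.1 and 87.7 CPM at 5 h, 343 and 342 CPM at 1 day, 416 and 472 CPM at 2 days and 1132 and 1147 CPM at 4 days, against 30.9 and 29.9 CPM attached, again with no overlap between times. At 4 days IL6 was 54.4-fold higher (log2 5.77 ± 0.16, adjusted p = 2.57e-28) and CSF3 37.5-fold higher (log2 5.23 ± 0.08, adjusted p = 7.92e-36) than in attached Tpm2.1 cells. In the mean over times CSF1 was higher by 1.61 ± 0.06, CSF2 by 1.45 ± 0.15 and IL6ST by 0.65 ± 0.05, while SOCS3 fell by 0.49 (SE 0.06). With IL6 at 3.31 ± 0.16 and CSF3 at 3.55 ± 0.07, 6 of 8 members passed, 5 higher and 1 lower, and 61.4% of all genes did. The largest adjusted p of the 6 was 8.29e-10, that of SOCS3. Without 4 days 8 of 8 passed, 5 higher and 3 lower, with 57.6% of all genes: IL11 was then lower at -0.43 ± 0.05 (adjusted p = 8.94e-10) and LIF at -0.12 ± 0.05 (adjusted p = 0.0226). Mitochondrial mRNAs were lower than in attached Tpm2.1 cells for 12 of 13 (median -0.71), and 1 of 4 nuclear RNAs was higher (median -0.10).

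IL11 and LIF crossed their attached level in these cells. IL11 had 70.0 and 70.2 CPM at 5 h, 81.2 and 84.0 CPM at 1 day, 187 and 176 CPM at 2 days and 275 and 280 CPM at 4 days, against 134 and 139 CPM attached. It was lower by a log2 difference of -0.96 ± 0.06 at 5 h and higher by 1.02 ± 0.06 at 4 days (adjusted p = 5.51e-18), and no library of any time overlapped the attached ones. LIF went the same way, with -0.39 ± 0.06 at 5 h and 0.77 ± 0.06 at 4 days (adjusted p = 8.04e-15), with 201 and 200 CPM at 4 days, against 117 and 118 CPM attached. SOCS3 was lower at 5 h, 1 day and 2 days, and had 123 and 115 CPM at 4 days, against 105 and 108 CPM attached, a difference of 0.16 ± 0.07 that did not pass (adjusted p = 0.0531, or 0.0432 with the replicate number as a block). Without the second non-apoptotic library of 4 days it was 0.21 and passed (adjusted p = 0.0443). From 5 h to 4 days 8 of 8 members rose in non-apoptotic cells, while 54.9% of all genes passed in either direction. The value for CSF1 was 0.20 ± 0.07 and fell short of the threshold without the first library of 5 h, at 0.16 (adjusted p = 0.111), or the second of 4 days, at 0.18 (adjusted p = 0.0642), and likewise with no filter on low counts (0.12, adjusted p = 0.104) or with protein-coding genes alone (0.13, adjusted p = 0.0768).

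**Figure D2:**
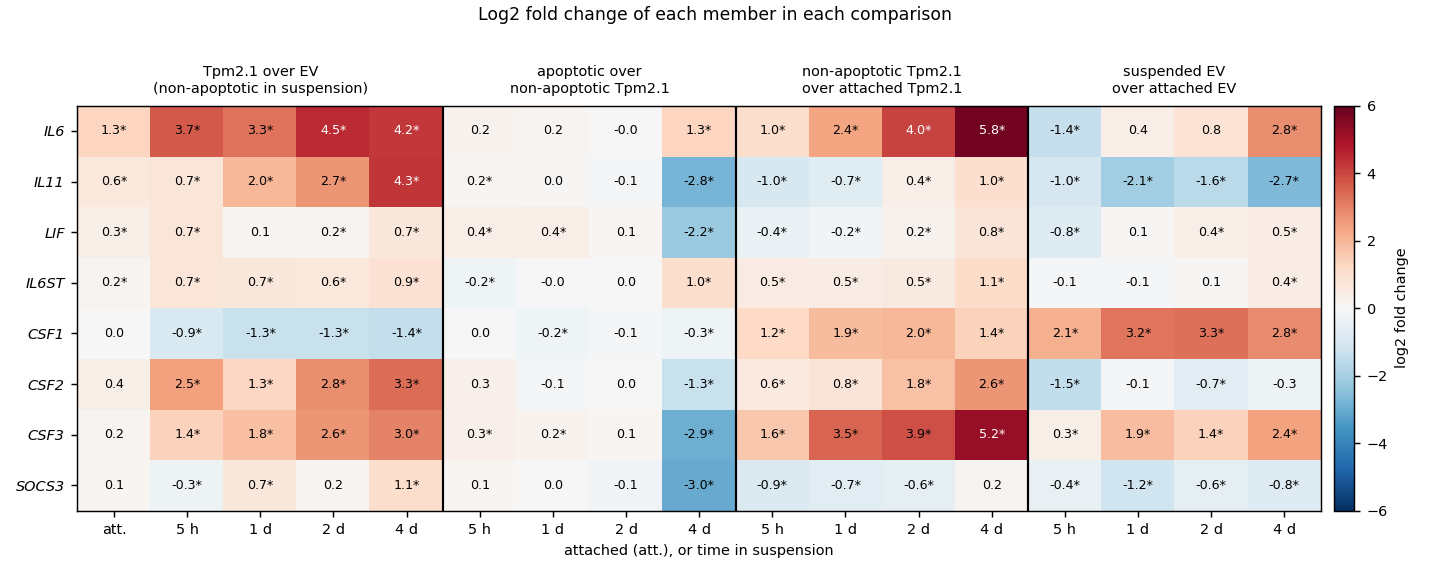
Log2 fold changes of the 8 members (rows) in 17 comparisons (columns), with the value in each cell and an asterisk where the adjusted p was below 0.05. In the first block CSF1 is lower in non-apoptotic Tpm2.1 cells than in EV cells at each time in suspension, at -0.9 to -1.4, while IL6, CSF2 and CSF3 are higher by 1.3 to 4.5.

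Set against EV cells at the same time in suspension, non-apoptotic Tpm2.1 cells had more IL6, IL11, CSF2 and CSF3 and less CSF1. The mean difference over the 4 times was 3.91 ± 0.12 for IL6, 2.47 ± 0.11 for CSF2, 2.42 ± 0.04 for IL11, 2.20 ± 0.04 for CSF3, 0.73 ± 0.03 for IL6ST, 0.42 ± 0.03 for LIF, 0.39 ± 0.04 for SOCS3 and -1.25 ± 0.03 for CSF1. All 8 members passed, 7 higher and 1 lower, with 60.5% of all genes passing, and the largest adjusted p of the 8 was 5.63e-11. Without 4 days the count was again 8, 7 higher and 1 lower, with 59.3% of all genes, and SOCS3 was at 0.17 ± 0.05. The median absolute log2 difference over all genes tested was 0.25. The 13 mitochondrial mRNAs were all lower in non-apoptotic cells than in suspended EV cells (median -0.94), as were 3 of 4 nuclear RNAs (median -0.65), and their part in these values was not tested.

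IL6 was the most divergent member at 5 h to 2 days, and IL6 and IL11 lay within their errors of each other at 4 days. At 4 days IL6 had 153 and 158 CPM in non-apoptotic Tpm2.1 cells, against 7.69 and 8.90 CPM in EV cells, a log2 difference of 4.23 ± 0.15. IL11 then had 275 and 280 CPM, against 15.6 and 12.3 CPM in EV cells, a difference of 4.31 ± 0.08. The gap of IL11 was 0.71 ± 0.07 at 5 h, 2.00 ± 0.08 at 1 day and 2.66 ± 0.07 at 2 days, wider at each time. CSF2 had 31.3 and 29.98 CPM in non-apoptotic cells at 4 days, against 2.90 and 3.15 CPM in EV cells (log2 3.34 ± 0.19), and at each of the 4 times the libraries of the lines did not overlap.

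CSF1 ran opposite to the other members. It had 260 and 274 CPM in non-apoptotic Tpm2.1 cells, against 486 and 526 CPM in EV cells, at 5 h, and 303 and 309 CPM, against 820 and 831 CPM, at 4 days. Attached cells of the lines differed by 0.01 ± 0.07 (116 and 118 CPM in Tpm2.1 cells, 118 and 115 CPM in EV cells). SOCS3 changed sign with time: its difference was -0.30 ± 0.08 at 5 h, 0.66 ± 0.08 at 1 day, 0.15 ± 0.08 at 2 days (adjusted p = 0.123) and 1.07 ± 0.08 at 4 days. Without the second EV library of 5 h the first of these was -0.23 and did not pass (adjusted p = 0.0616), and without the first non-apoptotic library of 2 days the value at that time was 0.26 and passed (adjusted p = 0.0205).

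The difference between the lines was itself compared between suspension and attachment. Averaged over the times, it was larger in suspension by 2.65 ± 0.42 for IL6, 2.09 ± 0.23 for CSF2, 2.05 ± 0.10 for CSF3, 1.78 ± 0.07 for IL11, 0.56 ± 0.06 for IL6ST and 0.26 ± 0.08 for SOCS3, and it was shifted by -1.26 ± 0.08 for CSF1. With 6 members higher and 1 lower, 7 of 8 passed, against 33.5% of all genes. Without 4 days 6 passed, 5 higher and 1 lower, against 35.4%. All 13 mitochondrial mRNAs (median -1.35) and 3 of 4 nuclear RNAs (median -1.40) were lower in the same comparison. LIF did not pass (0.08 ± 0.07, 95% interval -0.06 to 0.21): its difference between the lines was shifted by 0.40 ± 0.09 at 5 h, -0.25 ± 0.08 at 1 day, -0.17 ± 0.08 at 2 days, which did not pass, and 0.32 ± 0.08 at 4 days. The value at 1 day passed in 3 of the 8 refits that each left out 1 library. The SOCS3 value was 0.03 and did not pass without 4 days (adjusted p = 0.807), nor did it pass without the first attached Tpm2.1 library (0.24, adjusted p = 0.0785) or the first attached EV library (0.23, adjusted p = 0.0803).

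In the apoptotic fraction IL6, IL6ST and the colony stimulating factors were above attached Tpm2.1 cells, and IL11, LIF and SOCS3 were below them in the mean over times. IL6 had 6.38 and 7.29 CPM at 5 h, 16.8 and 17.1 CPM at 1 day, 38.8 and 54.3 CPM at 2 days and 371 and 396 CPM at 4 days, against 3.32 and 2.41 CPM attached, or 134-fold higher at 4 days (log2 7.07 ± 0.16, adjusted p = 7.63e-32). IL6ST had 1267 and 1315 CPM at 4 days, against 290 and 293 CPM attached (log2 2.15 ± 0.06). All 8 members passed in the mean, 5 higher and 3 lower, with 68.6% of all genes passing, and without 4 days 6 were higher and 2 lower, with 62.7%. All 13 mitochondrial mRNAs (median 0.98) and 3 of 4 nuclear RNAs (median 1.05) were higher as well. LIF was at -0.23 ± 0.05 in that mean and at 0.18 ± 0.05 without 4 days, so its direction rested on that time. Against suspended EV cells the mean had 6 members higher and CSF1 and SOCS3 lower, 8 of 8 in all, when 68.0% of all genes passed, and without 4 days 7 higher and 1 lower, with 45.0%. There 13 of 13 mitochondrial mRNAs (median 0.72) and 2 of 4 nuclear RNAs (median 0.31) were higher. SOCS3 was at -0.35 ± 0.05 in that mean and at 0.17 ± 0.05 without 4 days, and LIF, at 0.09 ± 0.03, no longer passed without the first apoptotic library of 4 days (0.06, adjusted p = 0.0847) or with no filter on low counts (0.06, adjusted p = 0.195). These comparisons share the attached or the EV libraries with those above and are not independent of them.

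The fractions differed little up to 2 days and a great deal at 4 days. Of the 8 members, 3 were higher and 1 lower in the apoptotic fraction at 5 h (21.4% of all genes passed), 2 higher and 1 lower at 1 day (19.3%), and 0 passed at 2 days (16.6%), where LIF had the smallest adjusted p, 0.147, in edgeR's test. At 2 days 2 members, LIF and CSF3, had an unadjusted p below 0.05, and DESeq2 also called 0 of 8. Fractions with the same replicate number were not paired in these tests. Leaving out 1 library made a call at 2 days in 2 cases, CSF1 at -0.23 without the second apoptotic library (adjusted p = 0.0205) and CSF3 at 0.23 without the second non-apoptotic one (adjusted p = 0.0378). The largest of these early differences was that of LIF, 0.40 ± 0.06 at 5 h (adjusted p = 9.74e-06) and 0.38 ± 0.06 at 1 day (adjusted p = 1.28e-05), with 116 and 121 CPM in the apoptotic fraction, against 91.0 and 88.8 CPM in the non-apoptotic fraction, at 5 h. IL6ST was lower at 5 h, with 332 and 349 CPM in the apoptotic fraction, against 404.4 and 404.5 CPM in the non-apoptotic fraction (-0.25 ± 0.06, adjusted p = 0.00187), and passed without any 1 of the 4 libraries. The remaining early calls depended on single libraries: IL11 at 5 h (0.18) and CSF3 at 1 day (0.19) did not pass when any 1 of the 4 libraries was left out. CSF3 at 5 h was 0.32, and 0.17 without the second apoptotic library (adjusted p = 0.163). CSF1 at 1 day was -0.24, and -0.16 without the first non-apoptotic library (adjusted p = 0.194) or -0.23 without the second apoptotic one (adjusted p = 0.062).

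At 4 days 2 members were higher and 6 lower in the apoptotic fraction, when 72.1% of all genes passed. IL6 had 371 and 396 CPM in the apoptotic fraction, against 153 and 158 CPM in the non-apoptotic fraction (log2 1.30 ± 0.10, adjusted p = 3.84e-14). IL6ST had 1267 and 1315 CPM, against 627 and 634 CPM in the non-apoptotic fraction (log2 1.03 ± 0.06, adjusted p = 4.82e-19). For both genes each apoptotic library was above each non-apoptotic one.

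SOCS3 and CSF3 fell the most of the 8 at that time. SOCS3 had 13.5 and 16.2 CPM in the apoptotic fraction, against 123 and 115 CPM in the non-apoptotic fraction, and fell by 3.001 (SE 0.10, adjusted p = 1.29e-25). CSF3 had 151 and 145 CPM, against 1132 and 1147 CPM, and fell by 2.94 (SE 0.07, adjusted p = 7.78e-30). IL11 had 41.7 and 38.8 CPM, against 275 and 280 CPM, and fell by 2.78 (SE 0.07). LIF had 45.7 and 39.4 CPM, against 201 and 200 CPM (-2.23 ± 0.07), and CSF2 had 12.5 and 11.8 CPM, against 31.3 and 29.98 CPM (-1.34 ± 0.17). CSF1 differed least, with 246 and 265 CPM in the apoptotic fraction, against 303 and 309 CPM in the non-apoptotic fraction (-0.26 ± 0.07, adjusted p = 0.000829). The median absolute log2 difference over all genes was 0.93 at this time, and mitochondrial mRNAs moved with it: 12 of 13 were higher in the apoptotic fraction and the other did not pass, with a median of 2.07. Over the 3 earlier times 13 of 13 were higher, with a median of 1.53. Nuclear RNAs were higher for 3 of 4 both at 4 days (median 0.93) and over the earlier times (median 0.95). Their part in these values was not tested.

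**Figure D3:**
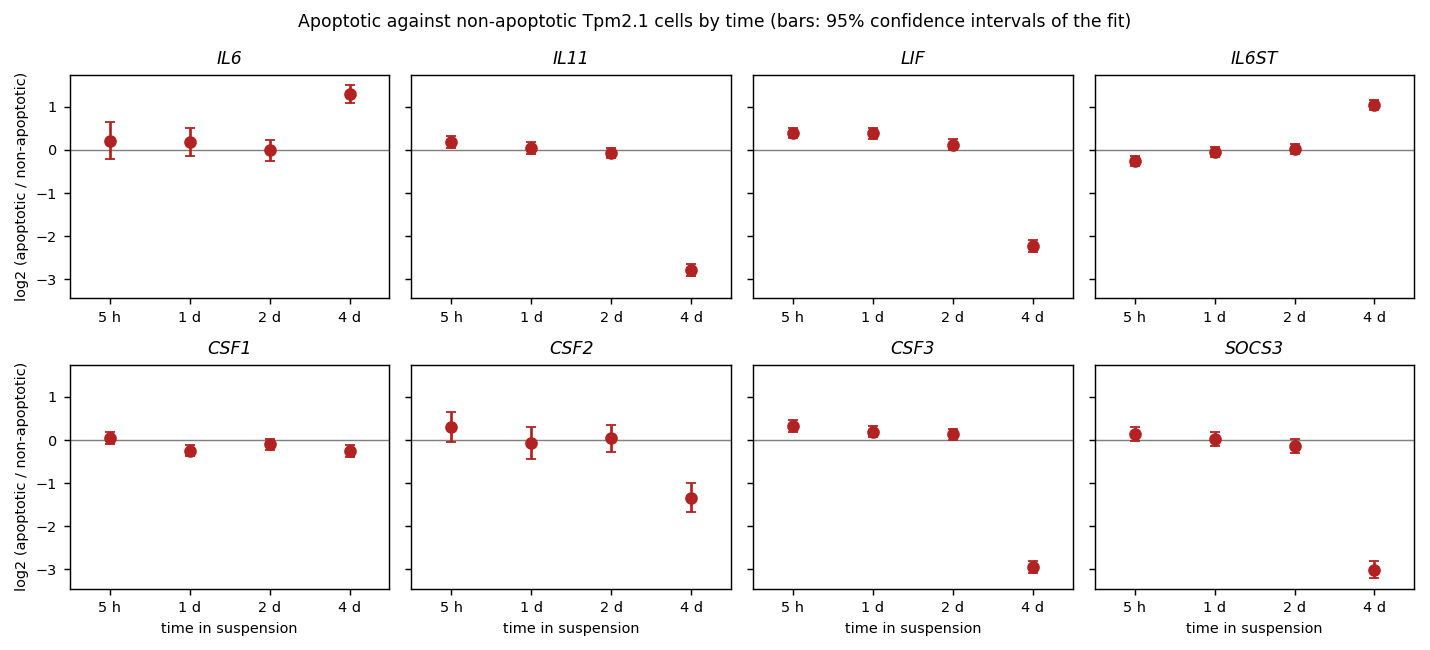
Log2 difference of the apoptotic minus the non-apoptotic Tpm2.1 fraction for each member at each time in suspension, with 95% confidence intervals of the fit. Up to 2 days the values lie between -0.25 and 0.40, and at 4 days they spread from -3.001 for SOCS3 to 1.30 for IL6.

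The change of the fraction difference between 5 h and 4 days passed for 8 of 8 members, 2 higher and 6 lower, as it did for 66.9% of all genes. It was 1.28 ± 0.08 for IL6ST and 1.08 ± 0.23 for IL6, and between -0.31 ± 0.10 for CSF1 and -3.27 ± 0.10 for CSF3 for the others. Within the apoptotic fraction itself, IL6 rose by 5.81 ± 0.15 and IL6ST by 1.92 ± 0.06 between 5 h and 4 days, and SOCS3 fell by 2.10 (SE 0.11), LIF by 1.47 (SE 0.07) and IL11 by 0.98 (SE 0.08). CSF3 was higher by 0.37 ± 0.07 and CSF2 by 0.40 ± 0.18, the second of which did not pass (adjusted p of 0.0642 to 0.295) when the first 5 h library or either 4 day library was left out, nor (0.0556 to 0.101) with DESeq2, its size factors, the FPKM totals, protein-coding genes alone or the libraries of the contrast alone. With 4 members higher, 3 lower and CSF1 not passing (-0.11 ± 0.07, 95% interval -0.25 to 0.03), 7 of 8 passed, against 77.0% of all genes. The median absolute log2 difference over all genes was 1.11 in this comparison, so the scaling itself is less certain here. With no filter on low counts CSF1 was at -0.27 and passed (adjusted p = 8.77e-06), while CSF2 was at 0.24 and did not (adjusted p = 0.332). The mean over all 4 times for the fractions, where 2 members were higher and 6 lower and 58.0% of all genes passed, is therefore largely a value of 4 days. In that mean CSF2 was at -0.26 ± 0.09, and at -0.19 without the second non-apoptotic library of 1 day (adjusted p = 0.074). Without that time 4 of 8 passed, LIF (0.30 ± 0.03) and CSF3 (0.22 ± 0.04) higher and CSF1 (-0.10 ± 0.04) and IL6ST (-0.09 ± 0.03) lower, against 38.5% of all genes.

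Levels can be set against each other on the deposited FPKM scale, which divides by gene length. In attached Tpm2.1 cells IL11 (51.3 ± 1.4 FPKM; SD, n = 2 here and below) and SOCS3 (38.9 ± 0.82 FPKM) were the highest of the 8 and IL6 (1.39 ± 0.31 FPKM) the lowest, and in attached EV cells SOCS3 (35.7 ± 0.76 FPKM) and IL11 (33.2 ± 0.21 FPKM) led and IL6 (0.578 ± 0.062 FPKM) was lowest. CSF1 was the highest member in suspended EV cells at every time, between 92.4 FPKM at 5 h and 213 FPKM at 2 days. In both Tpm2.1 fractions CSF3 took the first place at 1 and 2 days, at 151 to 216 FPKM. At 4 days CSF3 reached 501 ± 3.0 FPKM in the non-apoptotic fraction, where IL11 was next at 101 ± 0.88 FPKM and IL6 after it at 73.4 ± 1.4 FPKM. In the apoptotic fraction at 4 days IL6 was the highest member, at 180 ± 6.9 FPKM, followed by IL6ST at 135 ± 2.5 FPKM, and SOCS3 was the lowest at 5.27 ± 0.64 FPKM.

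**Figure D4:**
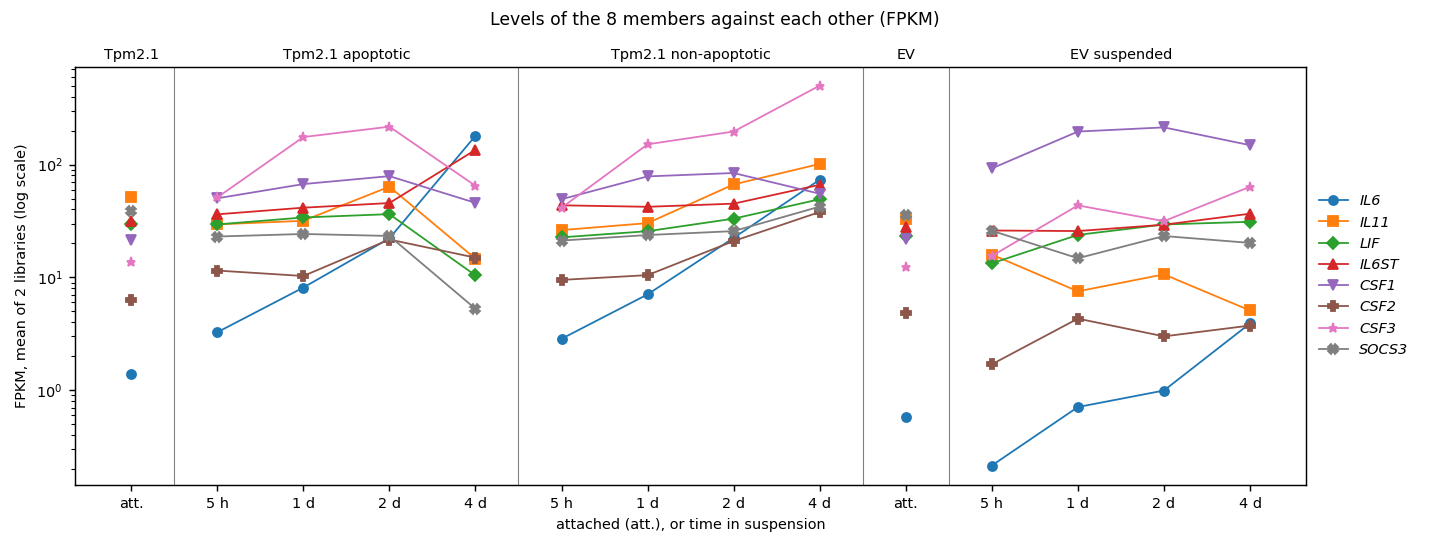
Mean FPKM of 2 libraries (log axis) for each of the 8 members in each of 14 groups, Tpm2.1 groups on the left and EV groups on the right, with lines joining times in suspension. CSF3 is on top in non-apoptotic Tpm2.1 cells from 1 day on and CSF1 on top in suspended EV cells, and IL6 moves from the lowest place in attached cells to the highest in the apoptotic fraction at 4 days.

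Across the 14 groups the members differed in range. IL6 spanned 852-fold between the apoptotic fraction at 4 days and EV cells at 5 h, CSF3 41.7-fold, CSF2 22.7-fold, IL11 19.9-fold, CSF1 10.0-fold, SOCS3 8.003-fold, IL6ST 5.28-fold and LIF 4.71-fold between their highest and lowest group means in CPM. When the groups were put in order of their means, libraries of neighbouring groups overlapped in 1 of 13 places for IL11, 2 for CSF3, 3 for LIF, 4 for IL6, 6 each for IL6ST, CSF1 and CSF2, and 7 for SOCS3. For IL6, IL11, IL6ST, CSF2 and CSF3 the fractions at 2 days were such an overlapping pair. Over the 14 group means the log2 CPM of IL6 went with that of IL6ST (Pearson's r = 0.92), CSF2 (0.87) and CSF3 (0.78) and hardly with that of LIF (0.16), a description over groups that share lines and libraries. Leaving out the apoptotic fraction at 4 days, the value for IL6 and LIF was 0.84.

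The genes whose group means ran most like a member's, among 12874 protein-coding genes with at least 1 CPM in a group, were found by the same correlation over 14 groups. For IL6 they were CXCL8 (0.99), SOD2 (0.98) and CCL20 (0.98), a neutrophil-attracting chemokine, a mitochondrial superoxide dismutase and another chemokine. For CSF3 they were ERN1 (0.96), a sensor of unfolded protein in the endoplasmic reticulum, ZC3H12A (0.95), which encodes Regnase-1, and CECR2 (0.95). For SOCS3 they were CSRNP1 (0.98), WTIP (0.96) and TEAD3 (0.96), for LIF EGR4 (0.94), FMNL1 (0.93) and FBLIM1 (0.93), and for IL6ST TVP23B (0.99), PGM3 (0.98) and CASP4 (0.98). For IL11 they were MOCS1 (0.92), SEMA7A (0.90) and ISG15 (0.88), for CSF1 TPD52L1 (0.96), ITGA10 (0.95) and FAM84B (0.94), and for CSF2 the nearest was CALHM5 (0.95). The apoptotic fraction at 4 days weighed on these ranks: without it, 1 of the 3 genes was still among the nearest 3 for IL6, IL11, LIF, CSF2 and SOCS3, and 0 of 3 for IL6ST, CSF1 and CSF3.

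Receptors for the ligands were measured unevenly. Of 7 IL6 family receptors besides IL6ST, 6 passed the filter on low counts, and CNTFR had a count of 0 in every library. IL6R, the IL6-binding chain, averaged 8.07 CPM in non-apoptotic Tpm2.1 cells, against 11.6 CPM in suspended EV cells (log2 -0.93), and in non-apoptotic cells it had 1.47 CPM at 4 days, against 21.1 CPM at 5 h (log2 -3.83). Here and below, averaged CPM are plain means over the 4 times. The log2 value beside them is the log2 difference averaged over the times, so it need not match their ratio. OSMR, the oncostatin M receptor chain that pairs with IL6ST, averaged 253 CPM in non-apoptotic cells, against 179 CPM in EV cells (log2 0.48), and had 545 CPM in the apoptotic fraction at 4 days, against 392 CPM in the non-apoptotic fraction (log2 0.48). LIFR had 65.8 CPM in the apoptotic fraction at 4 days, against 37.3 CPM in the non-apoptotic fraction (log2 0.82). Of the 6 tested, 3 were higher and 3 lower in non-apoptotic cells than in EV cells (median 0.05, all genes -0.03), when 60.5% of all genes passed. In the apoptotic against the non-apoptotic fraction at 4 days 2 were higher and 2 lower (median 0.20, all genes 0), when 72.1% of all genes passed. The receptors of the colony stimulating factors were near the floor: CSF3R had at most 2 counts and CSF2RB at most 1 in any library, CSF2RA at most 19 and CSF1R at most 35, or 1.89 CPM in its highest group. Of the 4 of 9 genes tested in this list, KITLG, the ligand of KIT, had 7.48 CPM in the apoptotic fraction at 4 days, against 5.54 CPM in the non-apoptotic fraction (log2 0.43), CSF1R fell there, and CSF2RA, named after its values were seen, was the 1 gene that passed between non-apoptotic cells (0.348 CPM) and suspended EV cells (0.00843 CPM).

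Of the other IL6 family ligands CLCF1 was the most abundant by CPM. OSM, IL27 and IL31 were below the filter, with at most 4, 0 and 1 counts. CLCF1, a ligand of the CNTF receptor, had 63.3 CPM in the non-apoptotic fraction at 4 days, against 24.7 CPM at 5 h (log2 1.36), and 21.8 CPM in the apoptotic fraction at 4 days, against 63.3 CPM in the non-apoptotic fraction (log2 -1.54). EBI3, a subunit of IL27 and IL35, averaged 5.42 CPM in non-apoptotic cells, against 1.56 CPM in suspended EV cells (log2 1.86). Of the 5 tested, 2 were higher and 0 lower in non-apoptotic cells than in EV cells (median 0.25), when 60.5% of all genes passed. In the apoptotic fraction at 4 days 0 were higher and 4 lower (median -2.81), when 72.1% of all genes passed, and CNTF did not pass.

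Downstream of the receptor, the 11 JAK kinases and STAT factors were all tested. Of these, 4 were higher and 6 lower in non-apoptotic Tpm2.1 cells than in suspended EV cells (median -0.17, all genes -0.03), when 60.5% of all genes passed. Among them were STAT5B (-0.43), TYK2 (-0.36) and JAK1 (0.20). In the apoptotic fraction at 4 days 3 were higher and 7 lower (median -0.82), when 72.1% of all genes passed. TYK2 had 22.1 CPM there, against 100 CPM in the non-apoptotic fraction (log2 -2.18). Of 13 other feedback inhibitors and phosphatases, 3 were higher and 4 lower in non-apoptotic than in EV cells (median -0.07), SOCS7 and PIAS3 among the lower at -0.49 and -0.51. At 4 days 7 of them were higher and 5 lower in the apoptotic fraction (median 0.30), with PTPN2 at 131 CPM, against 50.4 CPM in the non-apoptotic fraction (log2 1.38), and SOCS4 at 273 CPM, against 137 CPM (log2 1.00), while SOCS3 fell.

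Of 20 genes listed as STAT3 targets 16 were tested, and SERPINA3, FGL1, HP and LBP, acute-phase genes of liver, had at most 2 counts. In non-apoptotic cells against EV cells 10 were higher and 5 lower (median 0.39, all genes -0.03), when 60.5% of all genes passed. Among the higher were TIMP1, an inhibitor of metalloproteinases, at 1.48, JUNB at 1.14, MCL1 at 0.92 and CEBPB at 0.88. In the apoptotic fraction at 4 days 5 were higher and 11 lower (median -1.15, all genes 0), when 72.1% of all genes passed. CEBPB had 109 CPM there, against 853 CPM in the non-apoptotic fraction (log2 -2.97), JUNB had 33.7 CPM, against 223 CPM (log2 -2.73), and HIF1A was higher (log2 1.67). These genes also respond to other signals, and the list was drawn up with earlier results of these data known.

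Of 12 regulators of cytokine mRNA decay, 4 were higher and 2 lower in non-apoptotic Tpm2.1 cells than in suspended EV cells (median 0.03, all genes -0.03), when 60.5% of all genes passed. TNFAIP3, 1 of the 4 and the one with the largest value, is an inhibitor of NF-kB signalling and not itself a decay factor. It averaged 72.5 CPM in non-apoptotic cells, against 18.2 CPM in EV cells (log2 1.97). ZC3H12A averaged 53.7 CPM, against 14.6 CPM (log2 1.75), and ZC3H12C 115 CPM, against 57.9 CPM (log2 0.97). ZC3H12A, whose product degrades IL6 mRNA, had 18.6 CPM in the apoptotic fraction at 4 days, against 86.3 CPM in the non-apoptotic fraction (log2 -2.21), while ZFP36L1 had 520 CPM, against 320 CPM (log2 0.70). In that comparison 5 of the 12 were higher and 7 lower (median -0.28, all genes 0), when 72.1% of all genes passed.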

How the data were processed

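RNA was captured on poly-T beads and primed with random hexamers, per the labels' protocols. For 28 libraries the authors deposited gene counts, gene length and, in a table of its own, FPKM. The submitters' processing notes name hg38 and DESeq2; for the aligner and the counting tool, nothing is stated in the sources used here. In each library the deposited FPKM equalled the count divided by gene length and by a total (largest relative deviation 5.2e-15 over genes with 50 counts or more), and the totals implied were 0.856 to 1.08 times the summed counts.

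Counts were fitted with edgeR 4.0.16 and limma 3.58.1 in R 4.3.3 with 1 mean for each of 14 groups, after filterByExpr and TMM scaling (14 residual and 22.96 prior degrees of freedom, common biological coefficient of variation 4.77%). Differences were tested with the quasi-likelihood F test, two-sided, in 47 contrasts, and p-values were adjusted by the Benjamini-Hochberg method within a contrast over 17191 genes. The SE given is the log2 difference divided by the square root of F, an approximation. The fit was also run on simulated counts with the same spread in all groups and few genes changed. That run could not test unequal spread between groups or a change of most genes. Correlations used log2 CPM with a prior count of 2. DESeq2 1.42.0, other scalings and filters, a replicate block and each library left out in turn were the alternatives. The refits without a library kept the gene set and scaling of all 28, a detail settled after their values had been seen with both left free.

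The numbers 1 and 2 in the titles were not used to pair the libraries in the main fit. Over 91 pairs of groups the correlation of same-numbered deviations was -0.0751 to 0.0541. Between the fractions of the same time it was 0.00971 at 5 h, 0.053 at 1 day, 0.0492 at 2 days and -0.00607 at 4 days. Whether same-numbered fractions came from the same culture is not given. A correlation over all genes cannot settle it, since noise in single genes can hide a shared culture. Replicates differed by more than sampling noise in every group, with a chi-square per degree of freedom of 1.756 to 8.928. It was highest in the apoptotic fraction at 2 days (8.928) and 5 h (6.762), and lowest in EV cells at 1 day (1.756). Since the fit shared its estimate of spread over all groups, errors may be too small for the more variable groups and too large for the others. The lists were named as STAT3 targets, receptors, ligands, kinases, inhibitors and decay regulators, and genes named from them were the members in every comparison, TPM2, up to 4 genes per list and comparison ranked by p among genes reaching 1 CPM in any group, and the 3 genes most correlated with each member, some of which are not reported here. Members and lists were chosen with earlier results of these data known. Tables and figures were made in Python 3.11.15 with pandas 2.3.3 and matplotlib 3.10.9.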

Additional observations from a re-analysis of the deposited data

Results flagged for a closer look

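In an interaction test in edgeR's fit 7 of the 8 members passed, against 33.5% of all genes. For these the difference between the lines, non-apoptotic Tpm2.1 minus EV, was not the same in suspension as in attached cells. It was larger in suspension by a log2 value of 2.65 ± 0.42 for IL6 (SE; adjusted p = 5.01e-06), 2.09 ± 0.23 for CSF2 (adjusted p = 4.88e-09), 2.05 ± 0.10 for CSF3 (adjusted p = 3.07e-19) and 1.78 ± 0.07 for IL11 (adjusted p = 5.32e-21). It was larger by 0.56 ± 0.06 for IL6ST (adjusted p = 8.1e-09) and 0.26 ± 0.08 for SOCS3 (adjusted p = 0.0139, but 0.807 without 4 days and 0.0785 or 0.0803 without 1 of the attached libraries), and CSF1 went the other way at -1.26 ± 0.08 (adjusted p = 1.14e-15). The 13 mitochondrial mRNAs were all lower in the same interaction (median -1.35), and their part in it was not tested. Only the suspended Tpm2.1 cells had passed the bead step, which cannot be told apart from the line here.

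The difference between the apoptotic and non-apoptotic fractions was not the same at 4 days as at 5 h for 8 of 8 members, and for 66.9% of all genes. The shift was 1.28 ± 0.08 for IL6ST and 1.08 ± 0.23 for IL6, upward, and -0.31 ± 0.10 for CSF1 (adjusted p = 0.00467), -1.64 ± 0.24 for CSF2, -2.63 ± 0.09 for LIF, -2.97 ± 0.10 for IL11, -3.14 ± 0.13 for SOCS3 and -3.27 ± 0.10 for CSF3, downward. These values rest on the 2 apoptotic libraries of 4 days that stood apart in genes detected and in mitochondrial mRNA, and the part of either in the shift was not tested.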

How the results depend on the processing

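Without 4 days, 4 members passed between the apoptotic and non-apoptotic fractions, against 8 with it. Among the mean values that passed with 4 days, without it or both, 10 changed sign. In the fraction difference these were IL11 (0.052), LIF (0.30), IL6ST (-0.094), CSF2 (0.093), CSF3 (0.22) and SOCS3 (0.0015). SOCS3 in the apoptotic fraction against EV cells was then 0.17, and LIF against attached cells was 0.18 in the apoptotic fraction, -0.12 in the non-apoptotic fraction and -0.12 in EV cells. Counts over all genes without 4 days were 6612 between the fractions, against 9973 with it, and 7731 between apoptotic and EV cells, against 11692. Of the 3 genes most like each member, leaving out the apoptotic fraction at 4 days kept 1 for IL6, IL11, LIF, CSF2 and SOCS3 and 0 for IL6ST, CSF1 and CSF3.

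Between the lines in attached cells 2 to 3 members passed with 1 library left out, against 4, and 2097 to 2248 genes in all, against 3516. When the 4 attached libraries were fitted alone, 5 members and 5440 genes passed. With the replicate number as a block, SOCS3 in non-apoptotic cells against attached cells at 4 days passed (0.16, adjusted p = 0.0432), no other member's call changed and the member counts stayed the same.

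Of 320 member values, 0 that passed changed sign under another scaling or filter. Calls changed for 3 with DESeq2's size factors, 3 with the FPKM totals, 5 with protein-coding genes alone and 13 with no filter. Leaving out the filter moved every fraction difference at 4 days by -0.112 through the scaling. Protein-coding genes alone moved them the other way, by 0.0754 to 0.0756. The standard errors printed do not include such shifts. IL6ST in EV cells at 1 day, for example, was -0.13 and passed with DESeq2's size factors (adjusted p = 0.0451). The cause of the changed calls was not tested beyond those shifts. With 2 libraries a group, calls near the threshold turned on single libraries, and IL6 and CSF2 had wide errors in EV cells, where their counts were low.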
